A study of Mus musculus with 7 samples.

Results

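The 10 genes described here encode subunits of the voltage-gated calcium channels of the mouse cerebral cortex. They are the genes named Cacna1a, Cacna1b, Cacna1c, Cacna1d, Cacna1e, Cacna1g, Cacna1h, Cacna1i, Cacna2d1 and Cacna2d2, found by exact symbol among 36666 gene rows, and their 363 exons among 86425 exon rows. Of the 10 genes, 9 had exon rows, and Cacna1i was not analysed here at the level of exons. Messenger RNA of whole cerebral cortex was sequenced from C57BL/6 mice, with 3 samples from young adults and 4 from embryos at embryonic day 17. No genotype change, treatment or sorting of cells is named in the labels, and the adult age in days and the number of animals behind a sample are not given there, so the p-values below rest on sample-to-sample spread that may be partly technical.

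Voltage-gated calcium channels open when a neuron depolarizes and let calcium in, which triggers transmitter release, shapes firing and signals to the nucleus. The pore is formed by an alpha1 subunit, which sets the current type. Cacna1a encodes the P/Q-type, Cacna1b the N-type, Cacna1e the R-type, Cacna1c and Cacna1d the L-type, and Cacna1g, Cacna1h and Cacna1i the T-type pore. The alpha2delta proteins, here Cacna2d1 and Cacna2d2, and the beta subunits accompany the pores of all but the T-type channels and carry them to the membrane.

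Promoters of the members that were higher in adult cortex are shown first, because they are the sequences at the starts of the genes whose mRNA rose. Sequences were taken from RefSeq tables of GRCm38.p6, which list 250 bases before to 50 bases after a start and matched 7 of the 10 members. Cacna1a and Cacna1g were also higher in adult cortex but had no match, so their promoters are not shown. Capitals mark the GC box GGGCGG and TGACG, the core of the cyclic AMP response element, searched on both strands.
Cacna1i (chr15:80286988-80287287, plus strand): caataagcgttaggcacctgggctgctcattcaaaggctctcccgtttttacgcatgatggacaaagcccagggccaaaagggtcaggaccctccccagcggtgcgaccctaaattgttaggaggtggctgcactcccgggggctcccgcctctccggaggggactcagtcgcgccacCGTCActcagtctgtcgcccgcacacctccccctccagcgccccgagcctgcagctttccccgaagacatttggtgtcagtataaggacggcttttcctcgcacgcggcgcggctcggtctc
Cacna1e (chr1:154725871-154726170, minus strand): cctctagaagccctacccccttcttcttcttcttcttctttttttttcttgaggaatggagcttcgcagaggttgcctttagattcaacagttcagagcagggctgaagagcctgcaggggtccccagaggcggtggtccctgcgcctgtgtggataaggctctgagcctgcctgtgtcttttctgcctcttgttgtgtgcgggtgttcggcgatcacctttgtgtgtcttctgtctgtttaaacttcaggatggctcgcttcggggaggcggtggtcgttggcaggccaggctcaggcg
Cacna2d1 (chr5:15934441-15934740, plus strand): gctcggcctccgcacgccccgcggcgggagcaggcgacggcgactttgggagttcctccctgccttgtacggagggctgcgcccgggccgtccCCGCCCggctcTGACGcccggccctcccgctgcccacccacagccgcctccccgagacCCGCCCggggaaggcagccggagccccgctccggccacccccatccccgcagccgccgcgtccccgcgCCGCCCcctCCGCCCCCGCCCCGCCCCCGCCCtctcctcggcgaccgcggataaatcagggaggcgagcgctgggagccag
The Cacna2d1 promoter held 7 GC boxes, whereas the Cacna1i and Cacna1e windows held 0. Windows of members that were not higher in adult cortex also held GC boxes. Cacna1b had 3 and Cacna2d2 1, the 3 windows of Cacna1c had 0, 6 and 0, and the 2 windows of Cacna1d 0 and 6. The part of these motifs in the changes was not tested. The TGACG core occurred 1 time in the windows of Cacna1i and Cacna2d1 and 0 times in that of Cacna1e. Of 32851 promoter windows in the same table, 35.7% held a GC box and 20.8% a TGACG core. In the Cacna2d1 window some neighbouring GC boxes overlap by 1 base, and none overlaps the TGACG core.

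The samples held 18444264 to 23606521 reads in genes. The 6 cortical projection neuron markers, of which 1 was higher and 5 were lower in adult cortex, had summed levels of 1609 to 1724 counts per 1000000 reads in genes (CPM) in adult samples and 1594 to 1724 CPM in embryonic samples. Summed marker levels of other cell types differed with age. The 6 astrocyte markers summed to 4552 to 5454 CPM in adult samples and 303 to 322 CPM in embryonic samples. The 6 progenitor markers summed to 23.7 to 33.3 CPM in adult samples and 427 to 606 CPM in embryonic samples, the 6 striatal markers to 584 to 650.2 and 67.8 to 74.3 CPM, the 6 interneuron markers to 839.6 to 905 and 226 to 268 CPM, and the 5 choroid plexus markers to 567 to 693 and 0.651 to 1.88 CPM. The 6 oligodendrocyte markers summed to 3862 to 6915 CPM in adult samples and 48.7 to 51.7 CPM in embryonic samples. In bulk tissue, fewer cells of a type and less RNA per cell cannot be told apart.

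Differences are adult minus embryonic means of the deposited gene values, which follow log2 at high counts, and a gene was called at an adjusted p under 0.05 in limma. Of the 10 members, 7 were called, against 69.7% of the 22828 genes tested. In adult cortex 5 were higher (35.8% of genes tested were) and 2 were lower (33.9% of genes tested). The median difference was 0.30 over the members and 0.03 over all genes tested. The adult and embryonic values did not overlap in 7 members, against 68.9% of genes tested. These counts lie near those of all genes and are no result about the family as a whole, so what follows concerns the single genes.

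**Figure D1:**
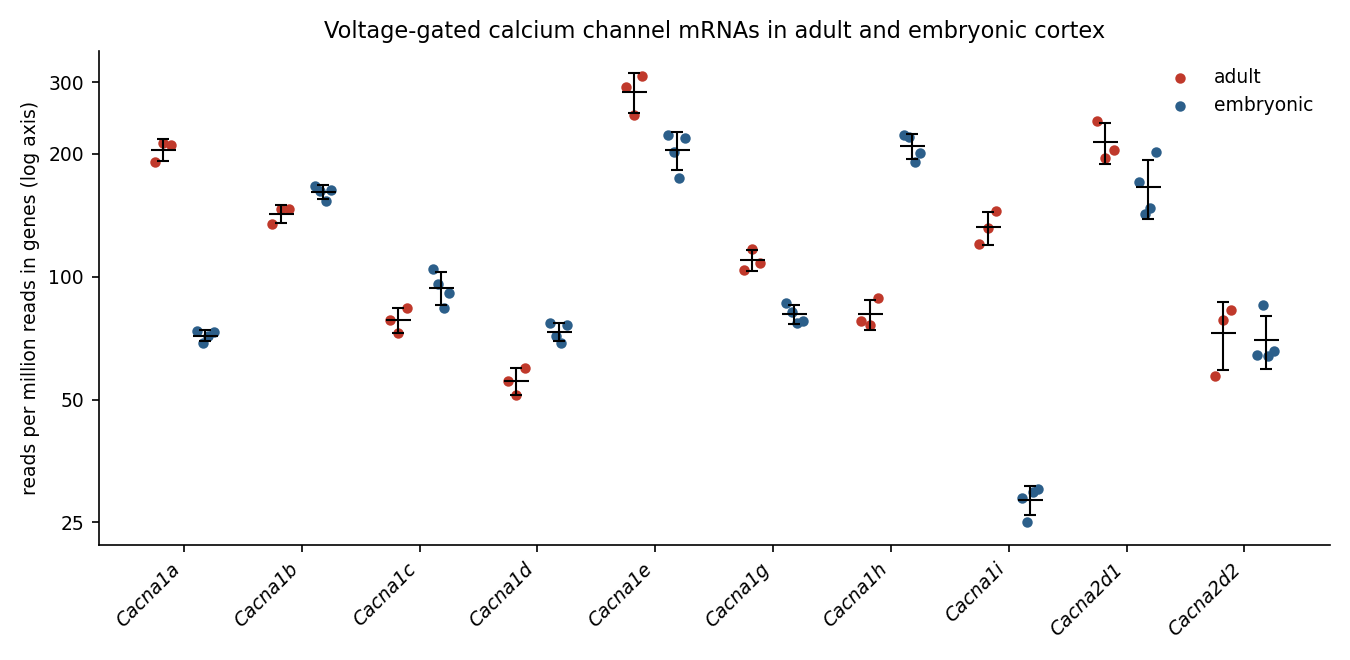
Level of each channel gene in CPM on a log axis, with adult samples left of embryonic samples. Points are samples, and bars give mean ± SD of 3 adult and 4 embryonic samples. Cacna1i and Cacna1a lie higher in every adult sample and Cacna1h lies lower.

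Among the channels of the presynaptic terminal, Cacna1a rose and Cacna1b was not called. Cacna1a, the P/Q-type pore that drives fast transmitter release at most mature synapses, had 191, 213 and 211 CPM in adult samples, against 73.7, 68.7, 71.6 and 73.0 CPM in embryonic samples. Every adult sample lay far above every embryonic one. The difference was 1.59 (SE 0.07, adjusted p = 2.12e-10 in limma). The mean CPM, which scales samples otherwise than the deposited values do, was 2.86-fold higher. Cacna1b, the N-type pore that shares this role at young synapses, had 134, 147 and 146 CPM in adult samples, against 167, 163, 153 and 163 CPM in embryonic samples. The groups did not overlap in CPM but did on the deposited scale, where the difference was -0.09 (SE 0.07, adjusted p = 0.258 in limma). With limma-voom on the recovered counts it was -0.18 (adjusted p = 0.0342), and with samples centred on their medians -0.28 (adjusted p = 0.0031), so the call on Cacna1b rested on the scaling.

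Cacna1e, the R-type pore found in dendrites, spines and terminals, had 292, 249 and 311 CPM in adult samples, against 222, 202, 174 and 219 CPM in embryonic samples. Its groups were separate, though the lowest adult sample was close to the highest embryonic one. The difference was 0.56 (SE 0.10, adjusted p = 0.000142 in limma).

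The L-type genes, whose channels couple depolarization to transcription, differed little: Cacna1d fell and Cacna1c was not called. Cacna1d had 55.4, 51.4 and 59.6 CPM in adult samples, against 77.0, 71.4, 69.0 and 76.2 CPM in embryonic samples. All adult values were lower, by 0.31 on the deposited scale (difference -0.31, SE 0.08, adjusted p = 0.00274 in limma). Cacna1c had 78.3, 72.7 and 83.7 CPM in adult samples, against 105, 95.9, 83.7 and 91.1 CPM in embryonic samples. Here adult replicate 3 reached the level of embryonic replicate 3, and the difference of -0.17 (SE 0.09) was not called (adjusted p = 0.0951 in limma). It was called with limma-voom on recovered counts (-0.26, adjusted p = 0.0165), after centring on medians (-0.35, adjusted p = 0.00257) and without embryonic replicate 3 (-0.22, adjusted p = 0.0347).

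The T-type genes, whose channels open near rest and support burst firing, differed in direction: Cacna1i and Cacna1g rose and Cacna1h fell. Cacna1i had 120.1, 132 and 145 CPM in adult samples, against 28.7, 24.98, 29.7 and 30.1 CPM in embryonic samples. Its difference of 2.27 (SE 0.09, adjusted p = 5.07e-11 in limma) was the largest of the 10 members, and its mean CPM was 4.66-fold higher. Cacna1g had 104, 117 and 108 CPM in adult samples, against 86.4, 81.8, 77.2 and 78.0 CPM in embryonic samples, a smaller rise with separate groups (difference 0.52, SE 0.08, adjusted p = 3.52e-05 in limma). Cacna1h had 77.9, 76.3 and 88.8 CPM in adult samples, against 223, 219.7, 191 and 201 CPM in embryonic samples. It fell in every adult sample (difference -1.27, SE 0.08, adjusted p = 6.87e-09 in limma). Along the same contrast 5 of 6 progenitor markers fell, and all 6 interneuron, all 6 striatal and 3 of 5 thalamic markers rose, with Pvalb and Vip at 0 in at least 1 sample. Of all genes tested 35.8% were higher and 33.9% lower. Such changes were not particular to these cell types. All 6 astrocyte, all 6 oligodendrocyte and all 6 microglia markers also rose, and 5 of 6 cortical projection neuron markers also fell. The 5 thalamic markers summed to 235 to 381 CPM in adult samples and 104 to 115 CPM in embryonic samples. The part of any of these cell types in the changes of Cacna1h and Cacna1i was not tested.

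Of the alpha2delta genes Cacna2d1 rose and Cacna2d2 was not called. Both proteins bind the drug gabapentin. Cacna2d1 had 241.3, 195 and 204 CPM in adult samples, against 171, 142, 147 and 202 CPM in embryonic samples. On the CPM scale embryonic replicate 4 lay between the adult samples, while on the deposited scale the groups were separate (difference 0.46, SE 0.11, adjusted p = 0.00234 in limma). Cacna2d2 had 57.1, 78.2 and 83.0 CPM in adult samples, against 64.4, 85.2, 63.9 and 65.6 CPM in embryonic samples. The groups overlapped widely and the difference of 0.14 (SE 0.13) was not called (adjusted p = 0.373 in limma). It was -0.04 after centring on medians, and 0.31 (adjusted p = 0.0359) without adult replicate 1.

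**Figure D2:**
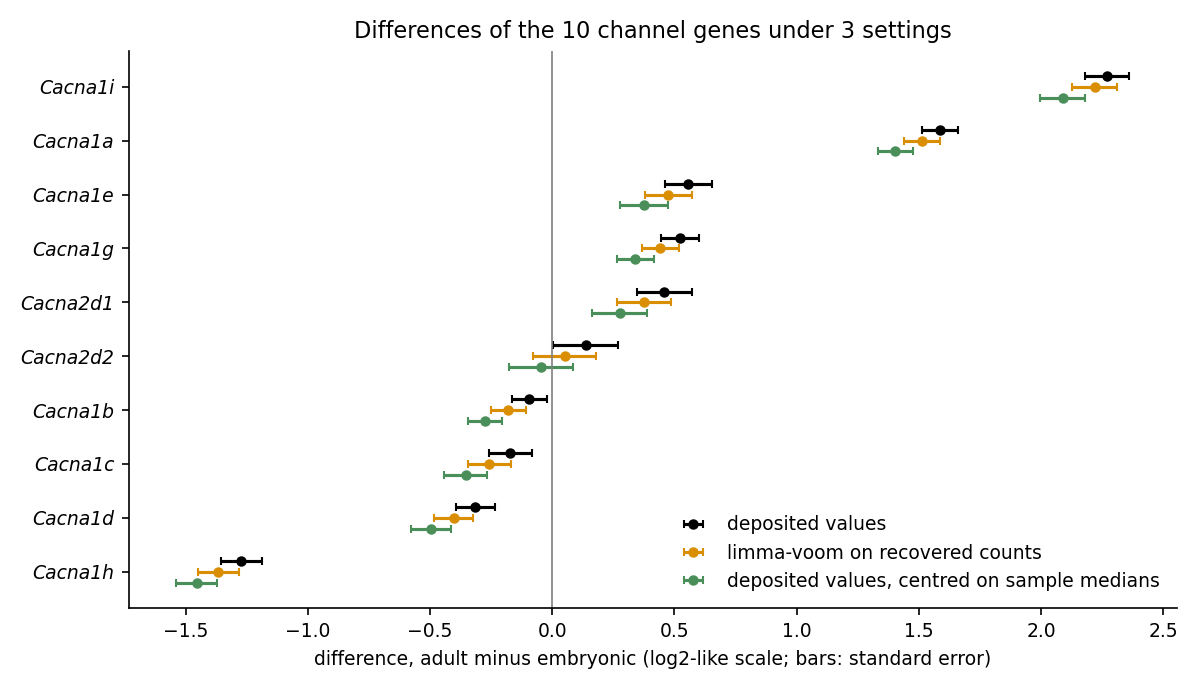
Difference of each member, adult minus embryonic, with its standard error on the log2-like scale, for the deposited values, limma-voom on recovered counts and values centred on sample medians. Cacna1i, Cacna1a and Cacna1h keep a wide distance from 0 in all 3 settings, whereas Cacna2d2 crosses it.

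Levels of different genes were compared as CPM per kilobase of the annotated GENCODE M21 transcript with the longest coding part. On this length the highest pore in adult cortex was Cacna1a (25.9 ± 1.56, SD, n = 3), followed by Cacna1b (19.8 ± 0.989) and Cacna1e (19.0 ± 2.13), whose sample ranges overlapped each other. Cacna1i (13.5 ± 1.26), Cacna1g (13.1 ± 0.773) and Cacna1c (11.7 ± 0.823) came next, with Cacna2d2 (13.1 ± 2.49) among them, and each of these overlapped its neighbour in this order. Cacna1h (9.84 ± 0.825) and Cacna1d (8.45 ± 0.626) were lowest and separate. In embryonic cortex Cacna1h (25.4 ± 1.81, SD, n = 4) and Cacna1b (22.5 ± 0.833) were the highest pores and overlapped. Cacna1c (14.1 ± 1.32), Cacna1e (13.7 ± 1.46), Cacna2d2 (12.6 ± 1.86) and Cacna1d (11.2 ± 0.583) formed a run of overlapping neighbours. Below them lay Cacna1g (9.64 ± 0.4998) and Cacna1a (9.05 ± 0.283), which overlapped, and Cacna1i (2.90 ± 0.239) was lowest and separate.

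Cacna2d1 had the highest level per kilobase of the members at both ages, 54.3 ± 6.20 in adult and 42.1 ± 6.96 in embryonic cortex. Its last exon row held 40% to 66.7% of its reads in every sample, as did the last rows of Cacna1e and Cacna2d2, so the length taken for the end of these mRNAs weighs on their level. The same holds for Cacna1c, whose last row held 22.2% to 40% of its reads on a transcript of 6669 bases, 6666 of them coding. The transcripts taken for Cacna1b (6984 of 7182 bases coding) and Cacna1d (6537 of 6564) also hold few bases outside the coding part. The exon rows of Cacna1b summed to mean shares of only 62.0% in adult and 53.8% in embryonic samples. The ranks of Cacna1b and Cacna1d therefore also depend on the length taken. The order of the pores turned with the length used: per kilobase of coding length Cacna1e was the highest pore, with 41.6 ± 4.65 in adult cortex, above Cacna1a (28.8 ± 1.74) and with no overlap. For Cacna1e the coding length is 6819 of 14921 bases, while reads of the whole transcript are counted. Its level per coding kilobase is therefore too high to rank it by. In embryonic cortex Cacna1e had 29.96 ± 3.20 per coding kilobase and overlapped Cacna1h (29.5 ± 2.11).

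The make-up of the pore mRNA was described as the share of each gene in the sum of the 8 length-scaled pore genes. The sizes of these shares depend on the transcript lengths taken, so they serve to compare ages rather than genes. Cacna1a made up 20.6%, 22.5% and 20.8% in adult samples, against 8.08%, 7.94%, 8.97% and 8.48% in embryonic samples. Cacna1h made up 8.11%, 7.76% and 8.43% in adult samples, against 23.5%, 24.5%, 23.1% and 22.5% in embryonic samples. The share of every other pore gene also lay apart between the groups, and with coding lengths only that of Cacna1e overlapped.

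Within the T-type genes alone the make-up also lay apart. Cacna1h supplied 26.995 ± 1.498% of the T-type mRNA in adult samples and 66.9 ± 1.24% in embryonic samples (SD, n = 3 and n = 4). Cacna1i supplied 37.0 ± 1.27% in adult and 7.68 ± 0.941% in embryonic samples, and Cacna1g 36.0 ± 2.25% in adult and 25.4 ± 0.402% in embryonic samples. The T-type genes together took 30.03 ± 0.709% of the pore mRNA in adult and 35.0 ± 0.783% in embryonic samples. These shares are descriptions of values tested gene by gene above.

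**Figure D3:**
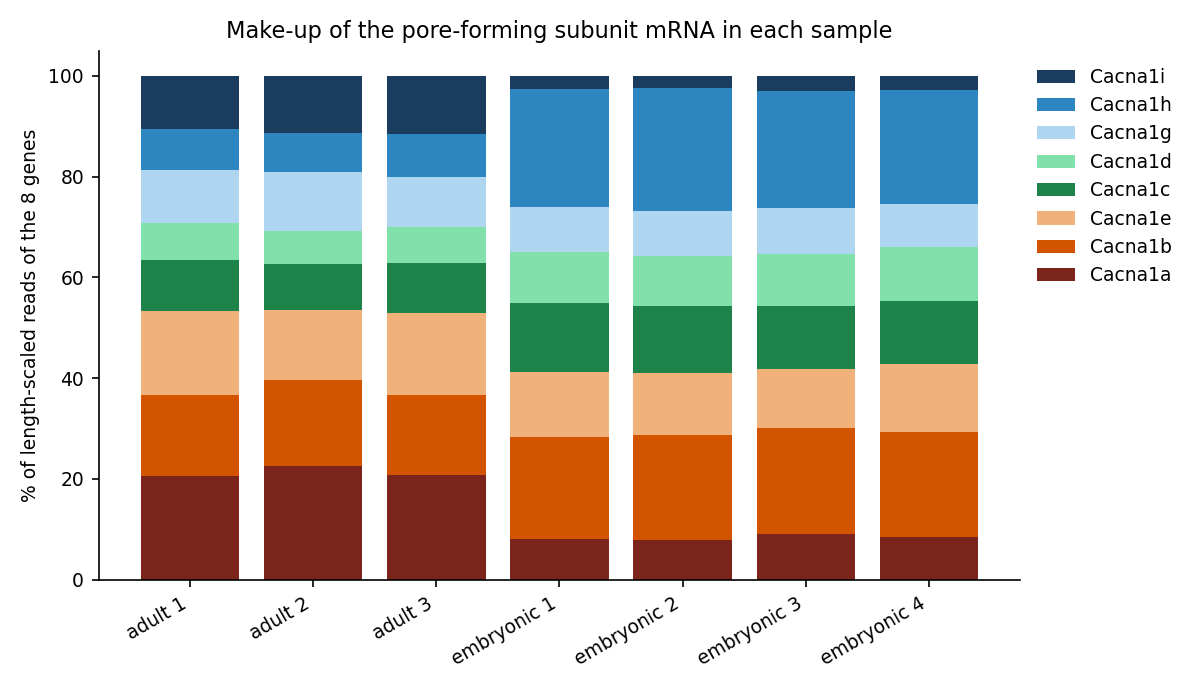
Share of each pore gene in the length-scaled reads (CPM per kilobase) of the 8 pore genes, one bar per sample, adult samples left of embryonic samples. Cacna1a and Cacna1i take larger parts of each adult bar, and Cacna1h a larger part of each embryonic bar.

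By distance between values centred over the 7 samples, the genes most like Cacna1i among 11413 genes of above-median level were Slit3, a guidance ligand (distance 0.16), Gng7, a G protein gamma subunit (0.17), and Adora1, the adenosine A1 receptor (0.20). The most like Cacna1h were Gm15616 (0.12), Hic2, a transcriptional repressor (0.12), and Yeats2, a subunit of a histone acetyltransferase complex (0.13).

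Of 10 other channel subunit genes, which include the pore genes Cacna1s and Cacna1f, 8 were higher and 1 was lower in adult cortex, with a median difference of 1.69. Over all genes tested 35.8% were higher and 33.9% lower, with a median of 0.03. The median of the list lies between Cacng6 (difference 1.45) and Cacna1s (1.93), which both had few reads. Cacng6 held 4 to 12 reads per adult and 0 to 3 per embryonic sample, and Cacna1s 14 to 31 and 2 to 4. The beta subunit Cacnb2 had 56.9 ± 6.06 CPM in adult and 8.18 ± 1.15 CPM in embryonic cortex (SD, n = 3 and n = 4, difference 2.78, SE 0.11, adjusted p = 5.02e-11 in limma). Cacnb4 had 178 ± 24.97 CPM in adult and 42.6 ± 4.04 CPM in embryonic cortex (difference 2.12), and Cacnb1 142 ± 18.2 and 72.3 ± 4.24 CPM (difference 1.05). Cacnb3 was nearly level, with 269 ± 24.3 CPM in adult and 245 ± 20.3 CPM in embryonic cortex (difference 0.22, SE 0.09, adjusted p = 0.0403 in limma), and its call was lost after centring on medians (0.04, adjusted p = 0.689), with limma-voom (0.14, adjusted p = 0.153) and without adult replicate 2 (adjusted p = 0.172), adult replicate 3 (0.0832) or embryonic replicates 1 (0.0755), 2 (0.0611) or 4 (0.117).

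The alpha2delta gene Cacna2d3 had 117 ± 14.1 CPM in adult and 31.6 ± 3.50 CPM in embryonic cortex, and its difference of 1.94 exceeded those of Cacna2d1 and Cacna2d2. Cacna2d4 had the largest difference of the list, 3.40 (SE 0.25, adjusted p = 2.67e-08 in limma), at a low level of 3.25 ± 0.815 CPM in adult and 0.131 ± 0.0434 CPM in embryonic cortex, where samples held 2 to 4 reads. The gene lower in adult cortex was Cacng1, a gamma subunit of muscle channels, with 2 to 3 reads per adult sample and 19 to 28 per embryonic sample. The pore genes of muscle and retina, Cacna1s and Cacna1f, stayed under 2 CPM in every sample.

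**Figure D4:**
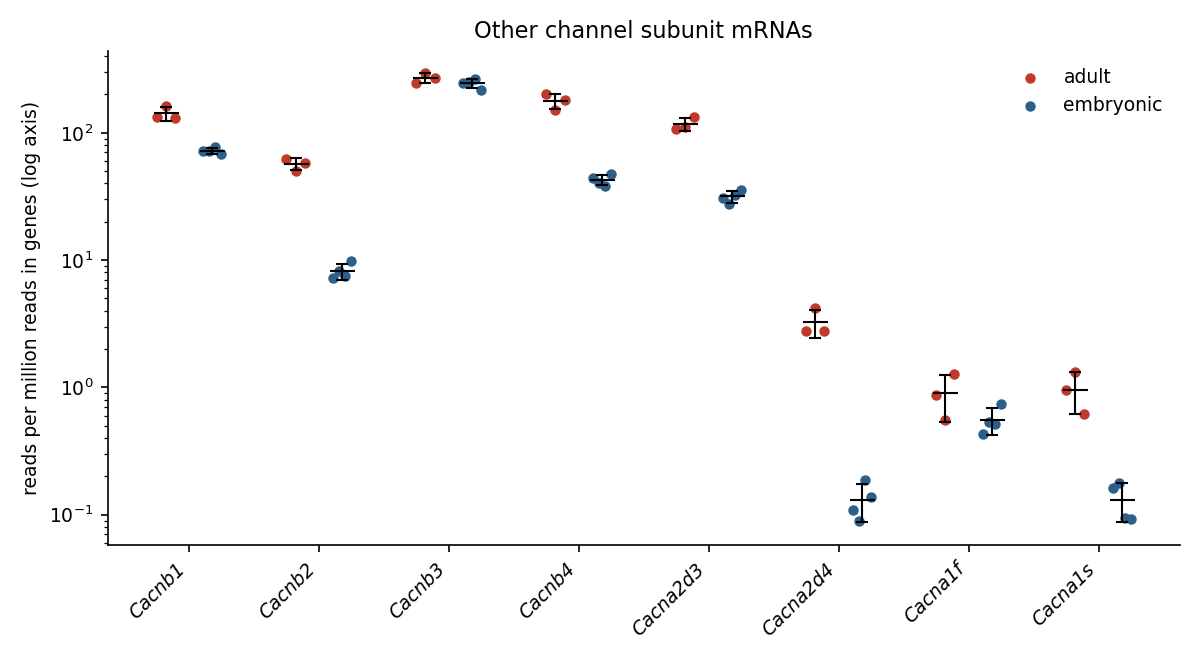
Level of 8 other channel subunit genes in CPM on a log axis, adult samples left of embryonic samples. Points are samples and bars give mean ± SD of 3 adult and 4 embryonic samples. Cacnb2, Cacnb4 and Cacna2d3 lie higher in all adult samples, and Cacnb3 lies close in both groups.

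Of 18 genes for proteins that hold or tune the channels, 15 were higher (35.8% of genes tested were) and 3 were lower in adult cortex (33.9%), with a median difference of 1.51. Like the other gene lists, this one was chosen with earlier results of these data known. The counts of the lists are therefore descriptions and no result about the groups of genes. Snap25 and Syt1, parts of the release machinery beside the channel, had the largest rises, with 2329 ± 176 and 1501 ± 48.4 CPM in adult and 216 ± 15.9 and 217 ± 23.1 CPM in embryonic cortex. Rims1, which tethers channels at the active zone, had 299 ± 23.6 CPM in adult and 75.1 ± 1.99 CPM in embryonic cortex (difference 2.06), and Cabp1, a calmodulin-like regulator of the pores, 131 ± 8.38 and 31.0 ± 4.25 CPM (difference 2.14). The adaptor Stac2 was higher in adult cortex, with 84.4 ± 9.97 CPM against 21.4 ± 1.71 CPM, whereas its relatives Stac and Stac3 were lower, with 1.31 ± 0.153 and 2.43 ± 0.781 CPM in adult and 4.77 ± 0.478 and 5.39 ± 0.175 CPM in embryonic cortex. Among the small GTPases that inhibit the channels, Rem2 (difference 0.47), Rem1 (1.47) and Rrad (1.09) were higher and Gem (-0.56, adjusted p = 0.0327 in limma) was lower. The call on Gem was lost without adult replicate 1 (adjusted p = 0.149), adult replicate 3 (0.104), embryonic replicate 1 (0.0862) or embryonic replicate 2 (0.0959). The neuron markers Stmn2 and Tubb3 were lower in adult cortex while Snap25, Syt1 and Eno2 were higher. The part of neuron number or type in these rises was not tested.

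Of 11 calcium-gated and store channel genes, 8 were higher (35.8% of genes tested were), 1 was lower (33.9%) and 2 were not called, with a median difference of 0.75. The ryanodine receptor Ryr2 had 274 ± 42.7 CPM in adult and 29.1 ± 3.60 CPM in embryonic cortex (difference 3.28), and the inositol trisphosphate receptor Itpr1 843 ± 135 and 158 ± 5.51 CPM (difference 2.48). Ryr1, the receptor of skeletal muscle, was lower, with 31.9 ± 5.87 CPM in adult and 69.6 ± 4.29 CPM in embryonic cortex (difference -1.03). Ryr3 (difference -0.16) and the potassium channel Kcnn3 (difference 0.22) were not called, and Ryr3 was lower after centring on medians (-0.34, adjusted p = 0.00449), with limma-voom (-0.25, adjusted p = 0.0263) and without adult replicate 3 (-0.27, adjusted p = 0.0148). Of 11 genes that carry calcium signals to the nucleus, 8 were higher (35.8% of genes tested were) and 3 lower (33.9%), with a median difference of 0.52, and 6 were higher after centring on medians, where Ppp3cb and Mef2c lost their calls. Bdnf, a neurotrophin induced by calcium entry, had 27.2 ± 2.11 CPM in adult and 2.05 ± 0.5599 CPM in embryonic cortex (difference 3.53), and Ppp3r1, the regulatory subunit of calcineurin, 548 ± 65.0 and 108 ± 10.7 CPM (difference 2.42). The calcineurin target Nfatc4 and the transcription factor Creb1 were lower, with differences of -2.22 and -0.90.

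Exon usage was compared as the share of a gene's reads that fell in each exon, tested with limma's diffSplice on the deposited exon values, where each exon is set against the other exons of its gene. Exons are numbered from the 5′ end among the rows of the gene, and positions are those in the deposited identifiers (mm9). The shares are not parts of one whole: summed over the rows of a member, the mean shares came to between 53.8% (Cacna1b in embryonic samples) and 134% (Cacna1c in adult samples). Of the 363 member exons, 10 were called, against 4.86% of the 86181 exons tested. Of these, 7 had a higher share in adult cortex (2.68% of exons tested did) and 3 a lower one (2.17% of exons tested). Of these 10 exons, 8 were also called on the log2 of the share. The exons of Cacna1c, Cacna1g and Cacna2d2 gave 0 calls. Without adult replicate 2 the counts were 4 and 1, without adult replicate 3 they were 13 and 10, without embryonic replicate 1 the first was 11, and without embryonic replicate 2 the second was 1.

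The clearest change in Cacna1a lay in exon 44 of 47, at position 87159448 on chromosome 8, near the 3′ end. The C-terminal tail of this channel is known for alternative splicing. This exon held 1.12%, 1.76% and 1.67% of the gene's reads in adult samples, against 0.368%, 0.129%, 0.0657% and 0.316% in embryonic samples. It rested on 49 to 88.5 reads per adult sample and 1 to 5 reads per embryonic sample. The mean share was 6.90-fold higher in adult cortex (adjusted p = 9.23e-12 in limma). In Cacna1b, exon 36 of 38 at position 24480758 on chromosome 2 held 1.95%, 1.89% and 1.89% in adult samples, against 0.778%, 1.03%, 0.645% and 0.766% in embryonic samples (adjusted p = 0.000729 in limma). In both genes the called exon lies among the last exon rows and had a higher share in every adult sample. The annotated Cacna1b transcript has 47 exons against 38 rows, so its distance from the 3′ end is not settled by this order.

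Cacna1d held 4 of the 10 called exons. Exons 29 and 30, at positions 30903008 and 30902482 on chromosome 14 and 526 positions apart, changed in opposite directions. Exon 29 held 2.21%, 0.906% and 1.03% of the reads in adult samples, against 0.141%, 0.186%, 0.205% and 0.182% in embryonic samples (adjusted p = 3.03e-06 in limma). Exon 30 held 0.236%, 0.494% and 0.148% in adult samples, against 1.13%, 1.12%, 1.16% and 1.76% in embryonic samples (adjusted p = 3.4e-05 in limma).

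The pair was set side by side after these values were seen, as a description. Exon 29 had 28, 11 and 14 reads beside 3, 6 and 2 reads of exon 30 in adult samples, and 2, 3, 3 and 3 reads beside 16, 18, 17 and 29 reads in embryonic samples. Of the reads in either exon, exon 29 thus took 90.3%, 64.7% and 87.5% in adult samples and 11.1%, 14.3%, 15.0% and 9.38% in embryonic samples. Mutually exclusive neighbouring exons are a known feature of L-type channel genes, though whether these exons are such a pair was not tested.

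In the same gene, exon 10 of 45 at position 30941958 held 3.82%, 5.02% and 2.21% in adult samples, against 1.62%, 1.67%, 1.36% and 1.33% in embryonic samples (adjusted p = 6.15e-05 in limma). Exon 6 at position 30985142 held 0.158%, 0.165% and 0.0737% in adult samples, against 0.493%, 0.868%, 0.409% and 0.243% in embryonic samples, with only 1 to 2 reads per adult sample (adjusted p = 0.0233 in limma). Its call was lost without adult replicate 2 (adjusted p = 0.0662), adult replicate 3 (0.0946), embryonic replicate 2 (0.164) or embryonic replicate 3 (0.06).

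In Cacna1e, exon 1 at position 156572781 on chromosome 1 had a mean share of 2.56 ± 0.387% in adult and 1.76 ± 0.306% in embryonic samples, and exon 20 of 46 at position 156319190 had 4.91 ± 0.6998% and 3.40 ± 0.418%. Neither was called on the log2 of the share (adjusted p = 0.29 and 0.321), the first was lost without adult replicate 1 (adjusted p = 0.252), adult replicate 2 (0.129) or embryonic replicate 2 (0.116), and the second without adult replicate 2 (0.0657). In Cacna1h, exon 19 of 34 at position 25521640 on chromosome 17 had 1.16 ± 0.485% in adult and 1.90 ± 0.128% in embryonic samples (adjusted p = 0.0398 in limma). That call was lost after centring on medians (adjusted p = 0.054) and in 6 of the 7 fits that left out a sample, with an adjusted p of up to 0.5403 without adult replicate 2. In Cacna2d1, exon 23 of 39 at position 15847808 on chromosome 5 held 0.289%, 0.52% and 0.28% of the reads in adult samples, against 0.5399%, 0.0312%, 0.0958% and 0.0457% in embryonic samples (adjusted p = 0.0194 in limma). The groups overlapped through embryonic replicate 1 alone, which had 17 reads where the other embryonic samples had 1 to 3. The adjusted p was 3.87e-05 without that sample, and the call was lost without adult replicate 2 (adjusted p = 0.243) or embryonic replicates 2 (0.23), 3 (0.0507) or 4 (0.162).

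**Figure D5:**
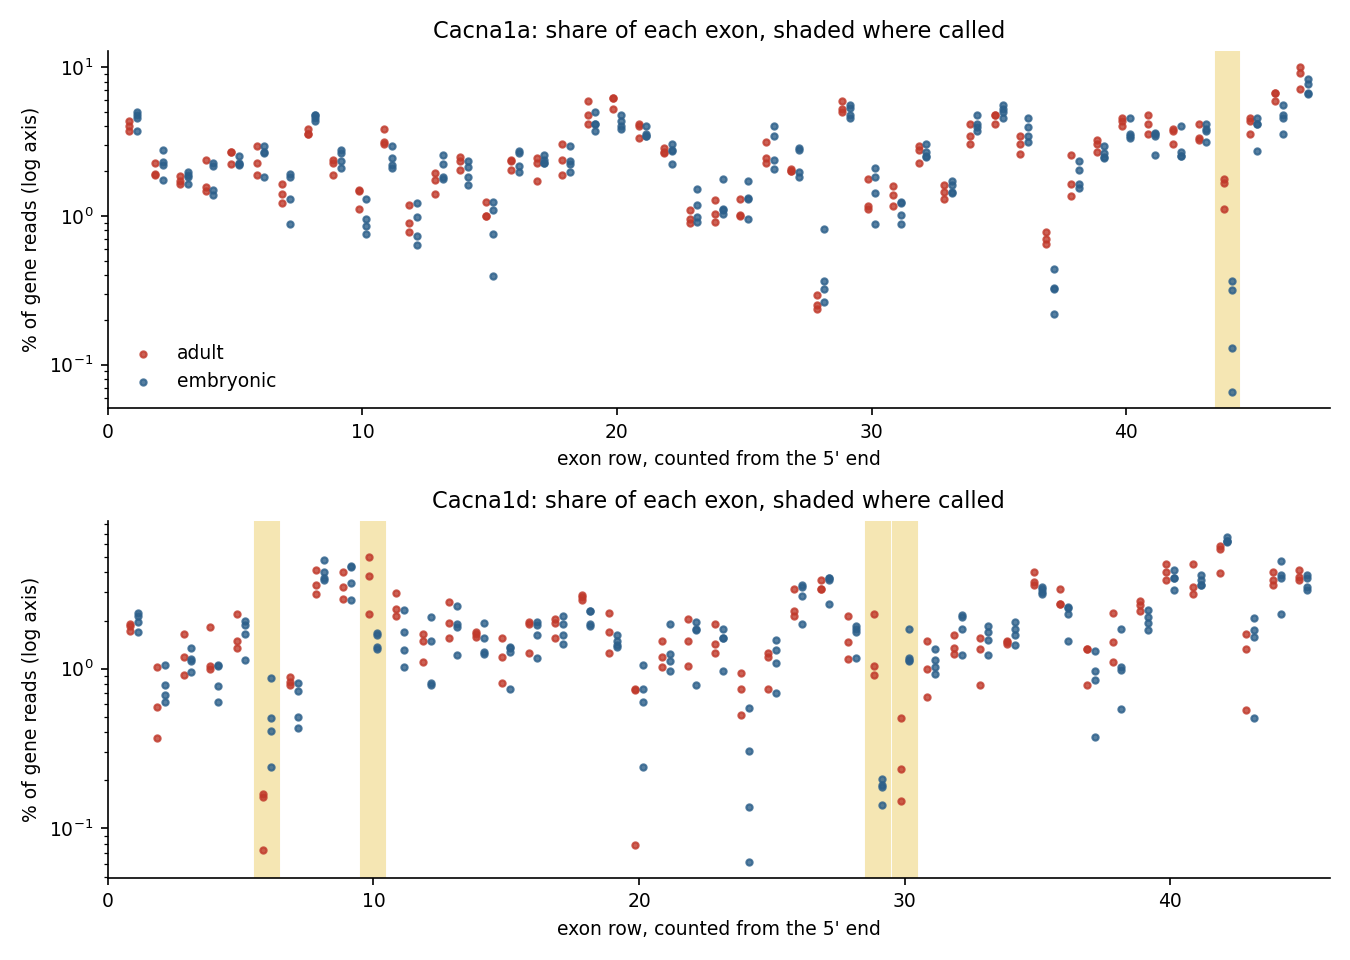
Share of the gene's reads in each exon row of Cacna1a and Cacna1d on a log axis, by order from the 5′ end, with adult points left of embryonic points. Each point is a sample and shading marks called exons. Exon 44 of Cacna1a lies higher in all adult samples, and exons 29 and 30 of Cacna1d change in opposite directions.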

How the data were processed

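Messenger RNA of adult and embryonic cortex was measured in 7 samples. The submitters' processing notes name, without role, HTSeq 0.5.3p3, SAMtools 0.1.7a, Bowtie 0.12.7.0, CASAVA 1.7.1, TopHat 1.0.13 and the mm9 build. The gene values are variance-stabilized counts on a log2-like scale deposited by the authors, and no source used here names the stabilizing tool. The exon values are a score deposited by the authors, described per the file headers as 1 over a ratio. Whether counting used strand is not given there. On GRCm38, exons of Cacna1a, Cacna1d, Cacna1h and Cacna2d2 share bases with a gene on the other strand, so reads of those stretches cannot be assigned with certainty.

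Each column is a smooth function of whole numbers, so reads were recovered, with at least 99.978% of gene values of every sample within 0.1 of a whole number. The first 120 steps of each gene column were assigned by construction. As a check, an exon's whole number is the gene's reads divided by the exon's reads, rounded. Of 69150 exon values able to show an error, 99.9% were reached by a whole number of exon reads, and 82.8% when every gene count was shifted by 1 read. A higher exon score therefore stands for a smaller share. Shares are the mean of the possible whole exon reads over gene reads, and 66.04% of 2541 member values allowed exactly 1. Shares are coarse for exons that hold much of a gene. Counts cover sequenced reads, not molecules.

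Values were fitted in limma 3.58.1 under R 4.3.3 (lmFit and trended eBayes over all 7 samples, no covariate), two-sided, with Benjamini-Hochberg adjustment over all features and a threshold of 0.05. Gene and exon rows equal to the column minimum in more than 3 samples were left out. Exons were fitted with diffSplice, which uses 1 variance per gene. Scripts were tested on simulated data. CPM and shares describe levels only. Chi-square tests between replicates gave 4.83 to 17.7 per degree of freedom, so none was treated as a duplicate. All 10 members are named. From each list the 2 called genes with the largest difference in each direction are named, and others with values were chosen after these were seen. From each member up to 3 called exons per direction with groups that do not overlap are named, and Cacna2d1 exon 23 was added as the only other called exon. Members and lists were chosen with earlier results of these data known. Alternatives were another filter, centring, limma-voom, a replicate block (without embryonic replicate 4) and leaving out each sample.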

Additional observations from a re-analysis of the deposited data

Results flagged for a closer look

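Each of 47 values (10 members, 10 exons and 27 other genes) was checked for 1 of the 4 embryonic samples lying far from the others, which chance gives in about 1 of 20 groups, and 3 were found. Cacna2d2 stood at 85.2 CPM in embryonic replicate 2, against 64.4, 63.9 and 65.6 CPM in embryonic replicates 1, 3 and 4. In that sample the progenitor markers summed to 606 CPM (427 to 560.3 CPM in the other embryonic samples) and the interneuron markers to 268 CPM (226 to 257 CPM). Their part in the value of Cacna2d2 was not tested. Exon 30 of Cacna1d held 1.76% of the gene's reads in embryonic replicate 4, on 29 reads, against 1.13%, 1.12% and 1.16% on 16, 18 and 17 reads in embryonic replicates 1, 2 and 3. Exon 23 of Cacna2d1 held 0.5399% in embryonic replicate 1, on 17 reads, against 0.0312%, 0.0958% and 0.0457% on 1, 3 and 2 reads in embryonic replicates 2, 3 and 4.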

How the results depend on the processing

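Cacna1a, Cacna1e, Cacna1g, Cacna1i and Cacna2d1 were called higher, and Cacna1d and Cacna1h lower, under every alternative run. Members called lower numbered 4 after centring and 4 in limma-voom, where Cacna1b (-0.28 and -0.18) and Cacna1c (-0.35 and -0.26) were added. Leaving out 1 sample gave -0.22 to -0.12 for Cacna1c and 0.035 to 0.31 for Cacna2d2. Centring shifted the genes' median difference by -0.18 and took the share of gene calls that were higher in adult to 43.6%, against 51.4% without it. Exons called over all genes ranged from 1417 to 3619 with a higher and 1340 to 3180 with a lower adult share when 1 sample was left out, and member exons from 4 to 13 and from 1 to 10. On the log2 of the share 6 member exons were lower. In the direction of the share, leaving out 1 sample gave -2.54 to -1.81 for Cacna1d exon 6, 0.95 to 1.66 for Cacna1e exon 1 (0.46 on the log2 share), 1.33 to 1.97 for Cacna1e exon 20 (0.45 on the log2 share) -1.89 to -0.89 for Cacna1h exon 19, which was -1.45 after centring, and 1.21 to 2.50 for Cacna2d1 exon 23. The cause was not tested. Same-numbered samples were not paired (correlations of 0.0709, 0.133 and 0.14 of their deviations, 1 of them under 0.1, and adult replicate 1 correlated best with embryonic replicate 4 at 0.303). The replicate block was fitted without embryonic replicate 4, which has no adult sample of the same number. In that fit 8031 genes were higher and 7497 lower, and 5 members were higher and 2 lower. Cacna1h exon 19 (-1.49) and Cacna2d1 exon 23 (1.36) were no longer called. The call on Cacna2d1 exon 23 was also lost without that sample and with no block. Blocking and the missing sample therefore cannot be told apart here. The planned negative binomial fits were not run, since the deposited unit is not counts, and the recovered reads were tested with limma-voom only. Exons with 1 to 6 reads limit the shares of Cacna1a exon 44 and of Cacna1d exons 6, 29 and 30.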
